A study of Mus musculus with 6 samples.

Results

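The 10 germ cell genes Mael, Dazl, Ddx4, Sycp1, Sycp3, Stra8, Zglp1, Tdrd1, Piwil2 and Mov10l1 were followed across 6 arrays of RW4 mouse embryonic stem cells. They are 10 of the 19938 genes that the platform annotation names, and each has 1 probe set. The arrays formed 3 groups of 2: cells given 1 µM 4-hydroxytamoxifen (4OHT), cells given 1 µM Shld1, and untreated cells. 4OHT is an estrogen receptor ligand used to switch on proteins fused to a mutated estrogen receptor domain (ERT2), and Shld1 is a small molecule that protects proteins carrying an unstable FKBP tag from breakdown. The labels give the induction system as ERT2 for the 4OHT arrays, FKBP for the Shld1 arrays and WT for the untreated ones, and do not say whether the cells carried a fusion protein. All groups were labelled as the same cell type, grown with serum and leukemia inhibitory factor on gelatin, and their RNA was treated with DNase. The length of treatment was not given in the sources used here, and the labels call the arrays of a group duplicates without saying whether they came from separate cultures.

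The 10 genes were chosen by their roles in germ cells and by their log2 differences from untreated cells on these same arrays, which were known beforehand. Mael and Zglp1 in particular were already known to have among the most negative differences between 4OHT and untreated cells. Their differences from untreated cells are therefore given as descriptions, without a test of any single gene.

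The genes span the germ line from commitment to meiosis. In the piRNA pathway, small RNAs carried by PIWI proteins guide the silencing of transposons, mainly in the male germ line; Piwil2, Mael, Ddx4, Tdrd1 and Mov10l1 belong to it. Zglp1 and Stra8 direct germ cells into the female fate and into meiosis, Dazl controls translation in germ cells, and Sycp1 and Sycp3 build the synaptonemal complex that holds paired chromosomes together. In embryonic stem cells many such genes are held down by promoter DNA methylation and by a variant Polycomb complex, PRC1.6, whose subunits MGA and MAX recognise the E-box CACGTG and whose subunit E2F6 recognises an E2F site with the core TCCCGC.

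Promoter windows were available for 9 of the 10 genes from RefSeq (GRCm38.p6), each running from 250 bases before to 50 bases after an annotated start. The 5 printed here, 5′ to 3′ on the gene's strand, belong to the genes whose 4OHT arrays both lay below both untreated arrays. Capitals mark the E-box CACGTG and the E2F6 core TCCCGC, or its reverse complement GCGGGA. The windows are chr1:166238695-166238994 (minus strand) for Mael, chr9:21067044-21067343 (minus) for Zglp1, chr17:50293571-50293870 (minus) for Dazl, chr6:34920698-34920997 (plus) for Stra8 and chr10:88459337-88459636 (plus) for Sycp3.
Mael: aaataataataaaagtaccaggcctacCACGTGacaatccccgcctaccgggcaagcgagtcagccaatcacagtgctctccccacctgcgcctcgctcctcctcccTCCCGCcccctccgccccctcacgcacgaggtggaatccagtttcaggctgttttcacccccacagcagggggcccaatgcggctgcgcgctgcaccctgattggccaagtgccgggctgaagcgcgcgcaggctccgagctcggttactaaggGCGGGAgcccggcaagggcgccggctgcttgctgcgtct
Zglp1: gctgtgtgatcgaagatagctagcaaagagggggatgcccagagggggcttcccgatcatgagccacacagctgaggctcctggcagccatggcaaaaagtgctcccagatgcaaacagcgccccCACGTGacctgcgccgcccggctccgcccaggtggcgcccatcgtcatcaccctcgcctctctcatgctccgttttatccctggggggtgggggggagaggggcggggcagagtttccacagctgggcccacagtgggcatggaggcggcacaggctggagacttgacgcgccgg
Dazl: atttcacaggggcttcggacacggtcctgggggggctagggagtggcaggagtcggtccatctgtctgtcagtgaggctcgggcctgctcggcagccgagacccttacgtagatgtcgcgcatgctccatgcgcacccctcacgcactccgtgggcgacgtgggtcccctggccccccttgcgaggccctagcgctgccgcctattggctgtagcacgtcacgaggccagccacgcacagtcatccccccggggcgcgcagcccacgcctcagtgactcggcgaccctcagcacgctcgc
Stra8: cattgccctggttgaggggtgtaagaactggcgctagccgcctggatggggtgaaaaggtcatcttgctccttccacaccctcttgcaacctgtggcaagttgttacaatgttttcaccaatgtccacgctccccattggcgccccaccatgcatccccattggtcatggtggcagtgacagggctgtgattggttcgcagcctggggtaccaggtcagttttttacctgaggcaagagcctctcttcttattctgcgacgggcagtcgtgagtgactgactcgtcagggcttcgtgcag
Sycp3: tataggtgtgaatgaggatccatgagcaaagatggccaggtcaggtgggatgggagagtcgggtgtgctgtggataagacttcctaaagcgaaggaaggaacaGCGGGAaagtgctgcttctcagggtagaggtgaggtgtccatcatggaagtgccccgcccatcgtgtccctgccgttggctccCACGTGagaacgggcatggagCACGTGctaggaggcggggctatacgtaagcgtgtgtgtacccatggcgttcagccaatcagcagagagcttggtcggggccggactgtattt

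The E-box was present in the windows of 7 of the 9 genes: Mael, Zglp1, Sycp3, Sycp1, Ddx4, Tdrd1 and Mov10l1. Across all 27025 genes with a window, 8.09% had an E-box, and of the 12388 genes with at least 10 CpG sites in a window 12.3% had one. The minimum of 10 was set to the lowest count among the 9 genes, after it was seen. The E2F6 core was present in 4 of the 9 (Mael, Sycp3, Sycp1 and Ddx4), against 22% of all genes and 42.7% of those with at least 10 CpG sites. All 4 also had the E-box. The E-box was also present in 30.8% of 13 further piRNA pathway genes, 26.7% of 15 meiosis genes and 27.8% of 18 genes under promoter methylation. The E2F6 core was present in 15.4%, 73.3% and 44.4% of these. In the primordial germ cell, spermatogonia, oocyte and spermatid lists, the E-box was present in 11.1%, 18.2%, 14.3% and 0%. The E2F6 core was present there in 22.2%, 9.09%, 28.6% and 0%. Both motifs were searched on both strands; they can share at most 1 base and did not overlap in these windows. Neither motif occurred in the windows of Dazl and Stra8. The 5 printed windows thus include 3 with an E-box, and each of the other 4 genes had one in at least 1 window, though 1 of the 3 windows of Tdrd1 had none. Per window, CpG sites were most frequent in Ddx4 (38) and Dazl (28) and least in Stra8 (10), taking the richest window of each gene, against a median of 7 over all 32851 windows. A match is a string of letters and not a measured binding site, and the arrays measured neither binding nor methylation.

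**Figure D1:**
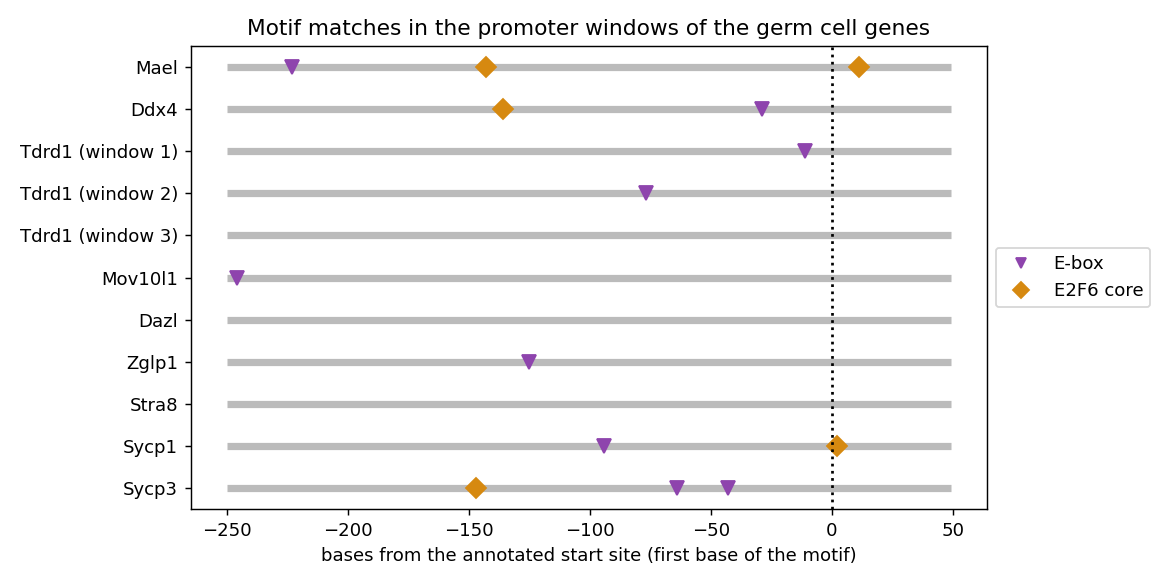
Positions of the E-box (triangles) and the E2F6 core (diamonds) in the promoter windows of the 9 genes with one, in bases from the annotated start site, which is 0. Windows are grey bars from 250 bases before the start; Tdrd1 has 3 windows. An E-box appears in 7 of the 9 genes, and Dazl and Stra8 show neither motif.

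The cells carried the signature of embryonic stem cells on every array. Pou5f1 lay at 10.23 to 10.45 on the log2 scale over the 6 arrays, Sox2 at 10.54 to 10.80 and Nanog at 10.64 to 10.99. The 95th percentile of 1015 olfactory receptor genes, 3.73, was taken as a background level. Of the 10 germ cell genes 9 lay above it on average, where 12815 of all 19938 genes did, and Tdrd1 (2.55 over all arrays) lay below it. Oocyte markers were below it in 13 of 13 cases, but 6 of 13 spermatid genes and 5 of 10 gonad somatic genes lay above it. A mean above this level therefore does not by itself set the germ cell genes apart. Array medians ran from 4.20 to 4.32, and 4OHT replicate 1 and Shld1 replicate 2 had narrower ranges of signal, with SDs of 2.29 and 2.24 over all probe sets against 2.33 to 2.35 on the others. Shld1 replicate 2 also had the highest median olfactory receptor signal, 2.57 against 2.31 to 2.40. In bulk RNA, fewer cells that express a gene and less RNA per cell cannot be told apart. Signals of different probe sets are not comparable, so each gene is compared only with itself across groups.

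Mael, an HMG-box protein of the piRNA pathway needed for transposon silencing in male germ cells, was lower on both 4OHT arrays. Its log2 signal read 5.16 and 5.25 with 4OHT, 5.83 and 5.55 with Shld1, and 5.92 and 5.93 in untreated cells. The untreated arrays were nearly equal, both 4OHT arrays lay below all 4 others, and both Shld1 arrays lay between. The 4OHT mean was 5.21 ± 0.06 and the untreated mean 5.92 ± 0.01 (SD, n = 2 each), a difference of -0.72 (SE 0.15) and a ratio of 0.608. With Shld1 the difference from untreated was -0.24 (SE 0.15), and most of it came from replicate 2 (-0.38, against -0.09 on replicate 1). Of the 19938 genes, 26 had a more negative difference with 4OHT than Mael.

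Zglp1, a GATA-like zinc finger factor that acts downstream of BMP signals to start the oogenic programme in mouse germ cells, had the same order. It was at 3.86 and 3.77 on the 4OHT arrays, at 4.33 and 4.08 on the Shld1 arrays, and at 4.64 and 4.43 on the untreated arrays. No pair of groups overlapped. The difference with 4OHT was -0.72 (SE 0.15), a ratio of 0.606, and 24 genes had a more negative one; with Shld1 it was -0.33 (SE 0.15). Both 4OHT values were close to the background level of 3.73, near which a probe set says little about the amount of RNA. Over the 6 arrays Mael and Zglp1 had a Pearson r of 0.954, the highest of the 36 pairs among the 9 genes above background. Both were known beforehand to be among the lowest with 4OHT on these arrays, so a high r was partly built in by the choice.

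Dazl, an RNA-binding regulator of translation, was at 5.26 and 5.34 with 4OHT, at 5.61 and 5.96 with Shld1, and at 5.59 and 5.96 untreated. The 4OHT arrays were the lowest of the 6, while the Shld1 and untreated arrays covered nearly the same range. The difference was -0.47 (SE 0.18) with 4OHT and 0.01 (SE 0.18) with Shld1. The untreated arrays themselves were 0.38 apart, and the 4OHT difference was -0.66 without untreated replicate 1 and -0.29 without untreated replicate 2.

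Stra8, which retinoic acid induces at the entry into meiosis, was at 6.84 and 6.95 with 4OHT, at 6.92 and 7.07 with Shld1, and at 7.30 and 7.32 untreated. All 4 treated arrays lay below both untreated arrays, and the groups of the agents overlapped each other. The difference was -0.42 (SE 0.14) with 4OHT and -0.31 (SE 0.14) with Shld1.

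Sycp3, a component of the chromosome axis and lateral element, was at 7.43 and 7.34 with 4OHT, at 7.96 and 7.28 with Shld1, and at 7.77 and 7.84 untreated. The 4OHT arrays lay below the untreated ones, whereas the Shld1 arrays included both the highest and the lowest value of the 6. The low one was replicate 2, the array of narrowest range. The difference was -0.42 (SE 0.21) with 4OHT and -0.19 (SE 0.21) with Shld1, and without Shld1 replicate 2 the Shld1 difference was 0.15. Sycp1, which forms the transverse filaments of the same complex, was at 4.33 and 4.51 with 4OHT, at 4.47 and 4.34 with Shld1, and at 4.46 and 4.40 untreated. Its range over the 6 arrays, 0.18, was the smallest of the 10 genes, and the differences were -0.01 (SE 0.15) and -0.03 (SE 0.15).

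The remaining genes of the piRNA pathway overlapped between 4OHT and untreated cells. Piwil2, a PIWI protein that binds piRNAs, was at 4.95 and 4.65 with 4OHT, at 4.66 and 4.67 with Shld1, and at 4.76 and 5.003 untreated. Its difference was -0.08 (SE 0.16) with 4OHT and -0.22 (SE 0.16) with Shld1, and both Shld1 arrays lay below both untreated arrays. Ddx4, the mouse homologue of the fly helicase Vasa, was at 3.92 and 4.18 with 4OHT, at 4.25 and 4.49 with Shld1, and at 4.01 and 4.22 untreated. It was the 1 gene of the 10 whose Shld1 arrays both lay above both untreated arrays, though the nearest of them, at 4.25 and 4.22, were close, with a difference of 0.25 (SE 0.16) with Shld1 and of -0.07 (SE 0.16) with 4OHT.

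Mov10l1, a helicase that binds piRNA precursors, was at 4.91 and 4.74 with 4OHT, at 5.09 and 4.88 with Shld1, and at 4.85 and 4.9995 untreated. All 3 groups overlapped, and the differences were -0.10 (SE 0.15) with 4OHT and 0.05 (SE 0.15) with Shld1. Tdrd1, a Tudor scaffold that binds PIWI proteins, was at 2.62 and 2.37 with 4OHT, at 2.42 and 2.99 with Shld1, and at 2.55 and 2.36 untreated. These values were below the background level on every array, so no level or difference can be read from them. The high value was on Shld1 replicate 2, the array whose olfactory receptor signal was also the highest.

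**Figure D2:**
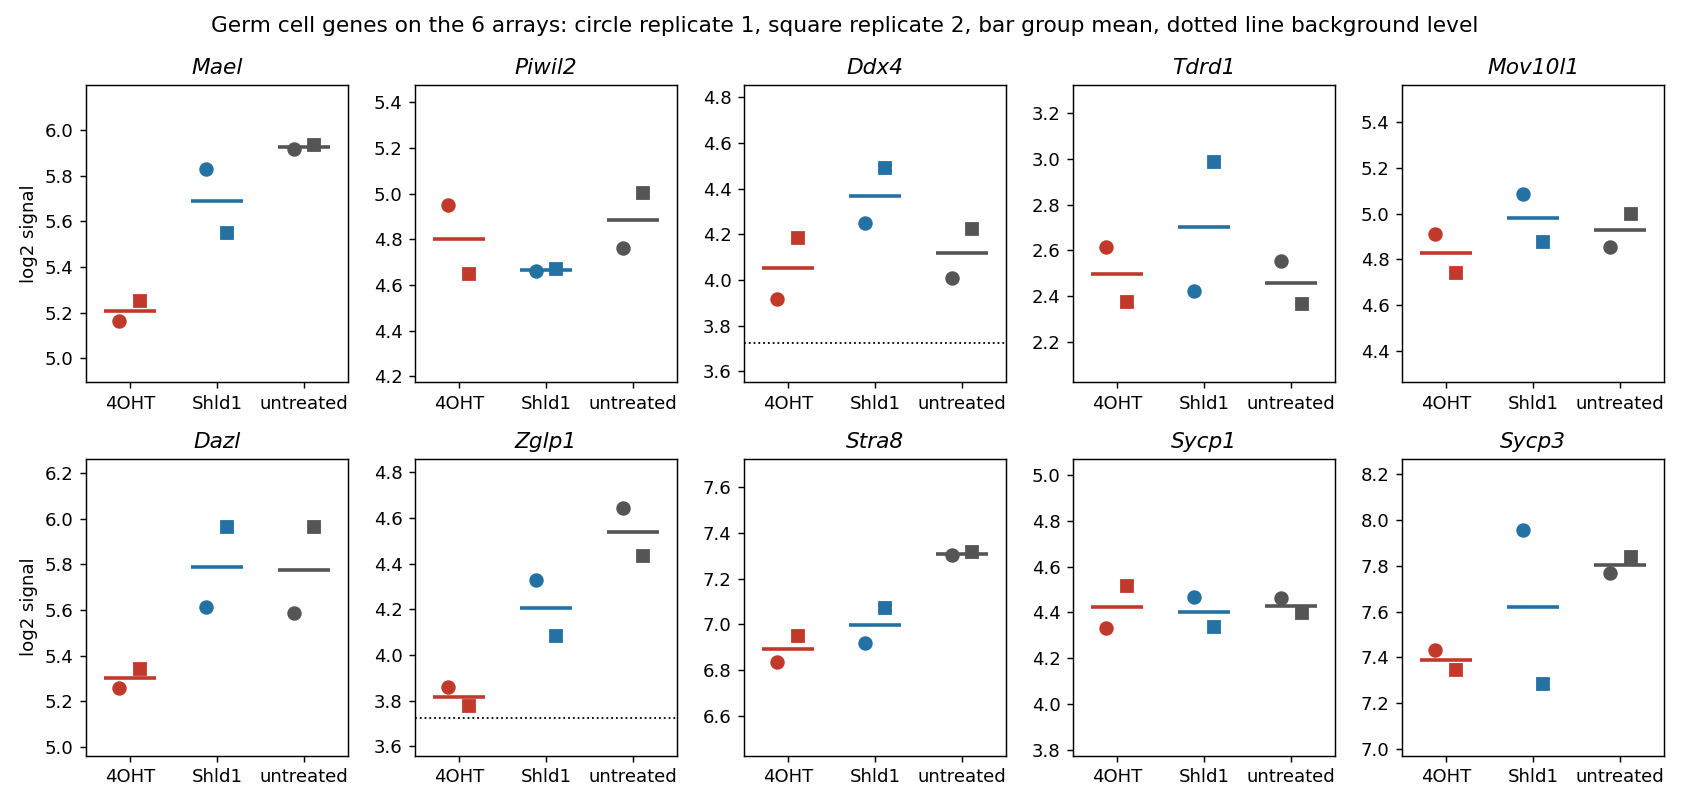
Log2 signal of each germ cell gene on the 6 arrays, with 4OHT, Shld1 and untreated cells from left to right; circles are replicate 1, squares replicate 2, bars group means, and the dotted line is the background level of 3.73 where it falls in a panel. All panels span 1.3 log2 units. Mael, Zglp1, Dazl, Stra8 and Sycp3 have both 4OHT points below both untreated points.

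The 10 genes were then read together for 4OHT against untreated cells. The median difference of the 10 was -0.26, against -0.01 over all 19938 genes, and 9 of 10 were negative, where 52.2% of all genes were. Both 4OHT arrays contributed: relative to the untreated mean, the median was -0.29 on replicate 1 and -0.30 on replicate 2, with 8 of 10 genes negative on each. The arrays did not overlap, with 4OHT lower, at 5 of the 10 genes and at 20.4% of all genes; 4OHT was higher without overlap at 0 of the 10, against 17.3% of all genes. Among the 12815 genes above background, 24.8% lay lower without overlap and 58.7% were negative. These counts describe genes picked partly for this contrast, and nothing is concluded from them. In the fit over all genes (limma, Benjamini-Hochberg adjustment), 0 of 19938 genes, 0%, passed an adjusted p of 0.05, none of the 10 included. An unadjusted p under 0.05 was found for 995 genes, 4.99% of all. Without untreated replicate 2 the median of the 10 was -0.17.

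For Shld1 against untreated cells the median of the 10 was -0.11, against -0.004 over all genes, and 6 of 10 were negative, where 51.1% of all genes were. The untreated arrays are the same as in the 4OHT comparison, so these differences are not independent of those with 4OHT. Shld1 was lower without overlap at 4 genes (Mael, Stra8, Zglp1 and Piwil2) and higher at 1 (Ddx4), against 17.3% and 15.2% of all genes. Among the 12815 genes above background, 20.7% lay lower without overlap, 12.7% lay higher and 58.1% were negative. The median was -0.06 on replicate 1 and -0.15 on replicate 2, the array of narrowest range, and it was -0.20 with untreated replicate 1 left out. Limma called 0 of 19938 genes (0%), with 866 (4.34%) at an unadjusted p under 0.05.

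Between the agents at the same dose, 4OHT was lower than Shld1 without overlap at Mael, Zglp1, Dazl and Ddx4, 4 of 10 genes, against 15.6% of all genes, and higher without overlap at 0, against 14.9%. The difference was negative for 8 of 10 genes, where 50.9% of all genes were negative. The differences of 4OHT minus Shld1 were -0.48 (SE 0.15) for Mael, -0.39 (SE 0.15) for Zglp1, -0.49 (SE 0.18) for Dazl and -0.32 (SE 0.16) for Ddx4. Stra8 differed by -0.10 (SE 0.14), with a 95% interval from -0.42 to 0.21, and its arrays overlapped. Without the arrays of narrower range, which leaves 1 array of each agent, the Ddx4 difference shrank to -0.06 and that of Dazl to -0.27, while Zglp1 differed by -0.55 and Mael by -0.58. The median over the 10 genes was -0.22, against -0.004 over all genes. Limma called 0 of 19938 genes (0%), with 1117 (5.6%) at an unadjusted p under 0.05.

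**Figure D3:**
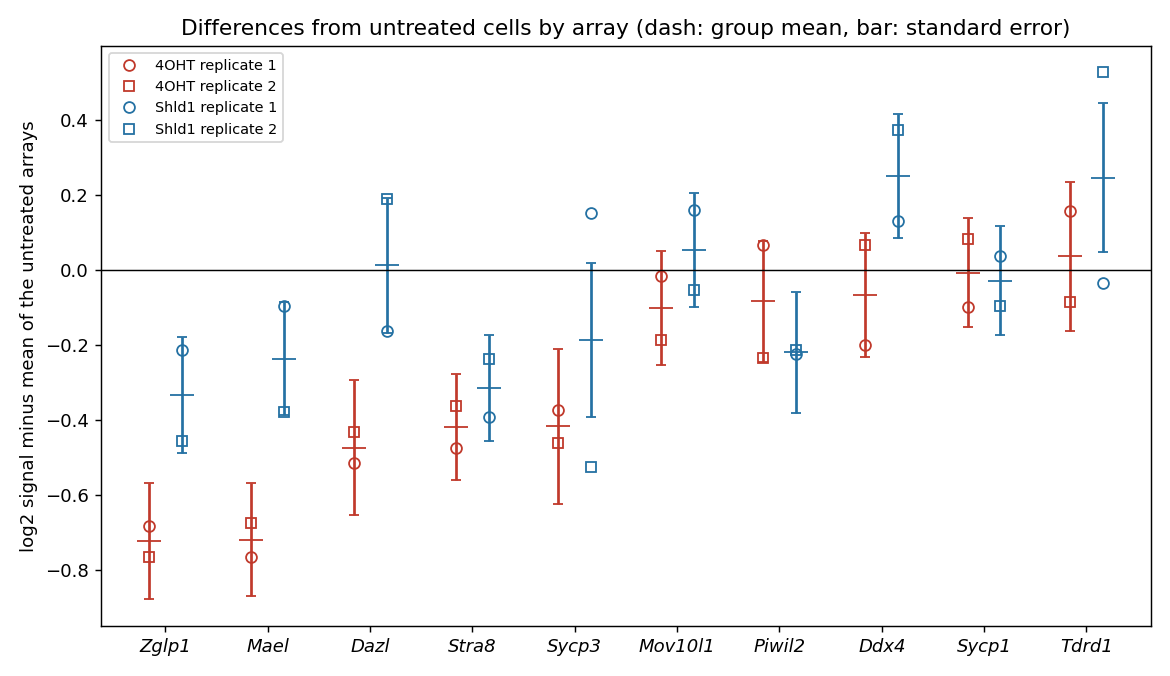
Log2 signal of each array minus the mean of the untreated arrays (open circles replicate 1, open squares replicate 2; 4OHT in red, Shld1 in blue), with the group difference as a dash and its standard error from the fit over all genes as a bar. Zglp1 and Mael stand lowest with 4OHT, both at -0.72, and the Shld1 points of Sycp3 and Tdrd1 lie far apart.

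Across the 3 groups, Mael, Zglp1, Stra8 and Sycp3 had their means in the order untreated, Shld1, 4OHT from high to low. Neighbouring groups in that order were set apart on the arrays for Mael and Zglp1, while Shld1 and 4OHT overlapped for Stra8, and for Sycp3 Shld1 overlapped both other groups. Tdrd1, below background, was left out of the pairs. Of the 36 pairs among the other 9 genes, 29 had a positive r over the 6 arrays, with a median of 0.219, and 2 reached 0.8: Mael with Zglp1, and Mael with Sycp3 (0.81). Sycp1 and Piwil2 had the most negative r, -0.50. These correlations rest on 6 arrays that share their groups, and on genes chosen partly by their differences on these arrays. They are given as a description.

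Other genes of these pathways, from lists chosen for their known roles, mostly had negative differences with 4OHT, with medians closer to 0. Of all genes 52.2% were negative with 4OHT and 51.1% with Shld1, and of the genes above background 58.7% and 58.1%. Of 18 further piRNA pathway genes, 9 lay above background, and 0 passed the adjustment in either direction with either agent. Of the 18, 14 had a negative difference with 4OHT (median -0.07) and 10 with Shld1 (median -0.01). The counts of signs in this and the next lists include genes below background, whose differences say little about the amount of RNA. Tdrd12, a Tudor protein needed for piRNA production, was at 5.25 and 5.36 with 4OHT, at 5.67 and 5.84 with Shld1, and at 5.93 and 5.96 untreated. Its groups stood in the same order as those of Mael, with both 4OHT arrays the lowest (difference -0.64, SE 0.14). Rnf17, a Tudor protein of male germ cells, differed by -0.31 (SE 0.18) with 4OHT and -0.01 with Shld1, Tdrd7 by -0.27 (SE 0.14) and -0.01, and Mybl1, a transcription factor of piRNA genes, by -0.06 (SE 0.15) and -0.06. The 4OHT arrays lay below the untreated ones without overlap at 5 of the 18 and above at 0, against 20.4% and 17.3% of all genes.

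Of 20 further genes of meiosis, 13 lay above background, and 0 passed in either direction with either agent. With 4OHT 14 were negative (median -0.14), and with Shld1 8 were (median 0.01). The 4OHT arrays lay below the untreated ones without overlap at 9 of the 20 genes and above at 2, against 20.4% and 17.3% of all genes. The Shld1 arrays lay below at 4 and above at 5, against 17.3% and 15.2%. Smc1b, the meiotic cohesin subunit, was at 3.93 and 4.48 with 4OHT, at 4.71 and 4.60 with Shld1, and at 4.90 and 4.71 untreated, so its 4OHT arrays were far apart (difference -0.60, SE 0.19). Tex11, a recombination protein encoded on the X chromosome, was at 3.67 and 3.82 with 4OHT, at 4.66 and 4.14 with Shld1, and at 4.34 and 4.33 untreated (difference -0.59, SE 0.18). The 4OHT values of Tex11 lay on either side of the background level of 3.73. Prdm9, which sets the sites of recombination, differed by -0.64 (SE 0.19) with 4OHT and -0.61 (SE 0.19) with Shld1. It was below background on average, with untreated arrays at 3.58 and 4.03. Syce2, a central element protein with the brightest probe set of the list in untreated cells, was at 8.30 and 8.31 with 4OHT, at 8.33 and 8.25 with Shld1, and at 8.40 and 8.25 untreated.

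Germ line genes known to be held down by promoter methylation were negative with 4OHT in 17 of 21 cases (median -0.08) and with Shld1 in 11 (median -0.003), and 0 passed in either direction. This list shares 3 genes with the piRNA list and 1 with the meiosis list, and 12 of its 21 genes lay above background. Rhox13, a homeobox gene of the X chromosome, differed by -0.39 (SE 0.16) with 4OHT and 0.17 (SE 0.16) with Shld1. Hormad1, a protein of meiotic chromosome axes, was at 5.81 and 5.67 with 4OHT, at 6.10 and 6.25 with Shld1, and at 5.70 and 5.70 untreated. Both Shld1 arrays were the highest of the 6 (difference 0.48, SE 0.14). Tuba3b, a tubulin of the testis and below background on every array, had the most negative Shld1 difference of the list, -0.68 (SE 0.18), and Tuba3a differed by -0.10 (SE 0.16). Genes of primordial germ cell specification, which naive stem cells largely share, were negative in 9 of 14 cases with 4OHT (median -0.12) and in 9 with Shld1 (median -0.02), with 0 passing. Dppa3 differed by -0.40 (SE 0.18) with either agent and lay below background on average. Tcl1, a coactivator of AKT kinases, differed by 0.39 (SE 0.16) with 4OHT, and Elf3 by -0.39 (SE 0.17). Ifitm1, the brightest probe set of this list, was at 10.72 to 11.06. Under the 16 alternative settings the 4OHT medians of the piRNA (-0.11 to -0.02), meiosis (-0.23 to -0.09), methylation (-0.15 to -0.04) and specification (-0.14 to -0.04) lists stayed negative, whereas their Shld1 medians took either sign. Several of these settings could not change a gene's difference.

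**Figure D4:**
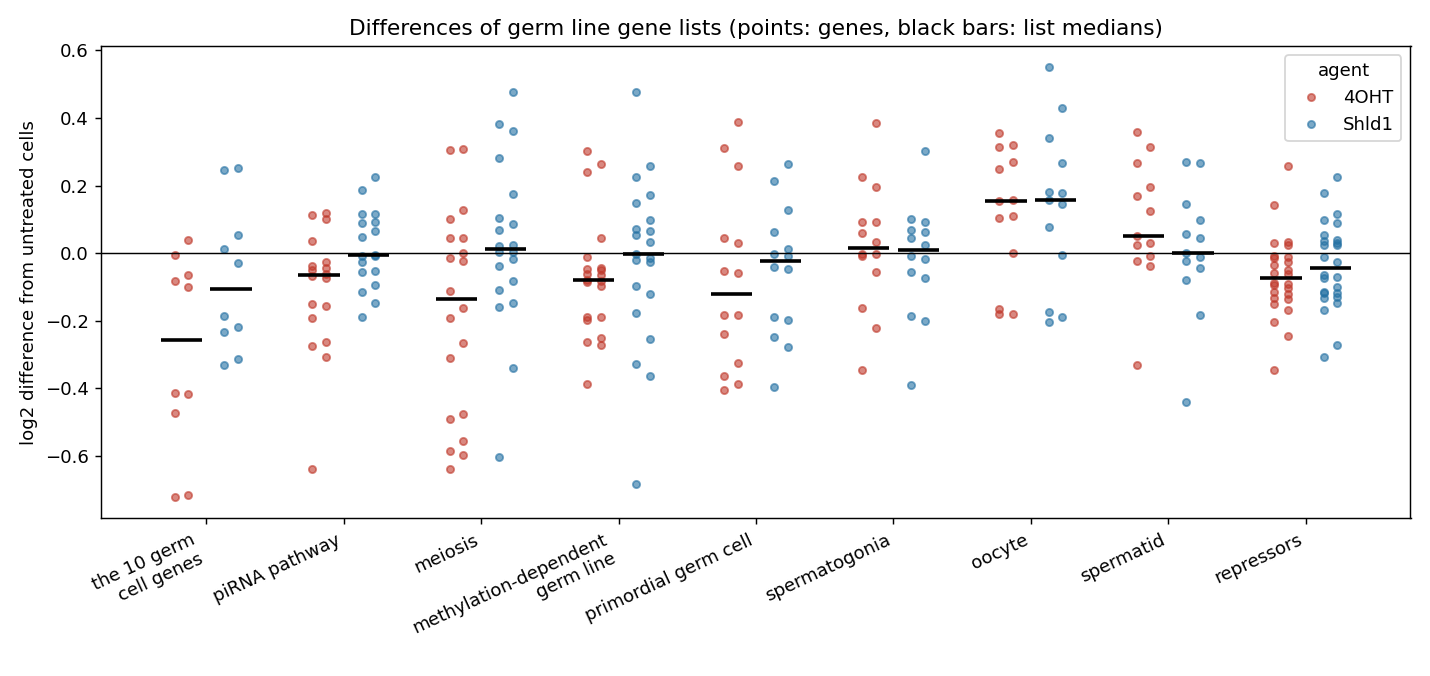
Log2 differences from untreated cells of the 10 germ cell genes and of 8 further lists (1 point per gene; 4OHT in red left of Shld1 in blue; black bars are list medians). The 10 genes, chosen with the 4OHT differences known, have the lowest 4OHT median, -0.26; the piRNA and meiosis lists lie at -0.07 and -0.14.

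The repressors of germ line genes were measured on the same arrays. All 26 lay above background, and 0 passed in either direction with either agent. With 4OHT 21 of 26 were negative, where 58.7% of all genes above background were, but the count differed between the arrays. Relative to the untreated mean, 21 were negative on 4OHT replicate 1, the array with the narrower range (median -0.13), and 10 on replicate 2 (median 0.02). Mga, Max and E2f6, singled out for the motifs after their values were seen, differed by -0.15, -0.10 and -0.06 with 4OHT and by -0.17, -0.15 and 0.23 with Shld1. Dnmt3a, a de novo DNA methyltransferase, was at 6.85 and 7.13 with 4OHT, at 7.33 and 7.45 with Shld1, and at 7.28 and 7.40 untreated (difference -0.35, SE 0.15). L3mbtl2, a PRC1.6 subunit, differed by -0.02 (SE 0.16) with 4OHT and -0.31 (SE 0.16) with Shld1, and Atf7ip by -0.01 and -0.27 (SE 0.14). The brightest probe set, Trim28, was at 10.11 to 10.39. Whether these differences bear on the germ cell genes was not tested.

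The signals upstream of Stra8 and Zglp1 were read from targets of retinoic acid and BMP. Of 11 retinoic acid targets 0 passed with either agent; 3 were negative with 4OHT (median 0.04) and 5 with Shld1 (median 0.003). Crabp2, a retinoic acid carrier, was at 5.79 and 6.01 with 4OHT, at 6.55 and 6.26 with Shld1, and at 6.64 and 6.39 untreated, a difference of -0.61 (SE 0.17). Rec8, a meiotic cohesin that is also in the meiosis list, differed by -0.27 (SE 0.15), and Hoxb1 by 0.35 (SE 0.21). Of 11 BMP targets 0 passed with either agent; 3 were negative with 4OHT and 5 with Shld1, both with a median of 0.04. Msx2, a homeobox target of BMP, was at 4.58 and 4.20 with 4OHT, at 4.81 and 4.72 with Shld1, and at 4.96 and 5.15 untreated, so that its groups stood in the same order as those of Zglp1 (difference -0.66, SE 0.17, with 4OHT). Smad7 and Bmp4 differed in the other direction, by 0.26 (SE 0.17) and 0.20 (SE 0.16) with 4OHT. Msx1 differed by -0.04 (SE 0.20) with 4OHT and by 0.32 (SE 0.20) with Shld1.

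The genes whose pattern over the 6 arrays was most like that of Mael were sought among 4195 genes above background that ranged by at least 0.5. They were Supt7l (r = 0.989), Ubxn11 (0.978), Lpcat3 (0.972), Mitd1 (0.971) and Txnip (0.970), and 83 of the 4195 exceeded 0.9. For Zglp1 they were Copz2 (0.989), St8sia1 (0.969), Tubb3 (0.961), Chst11 (0.959) and Senp8 (0.957). For Dazl they were Zcwpw1 (0.989), Snrnp35 (0.974), Pdia5 (0.953), Smpd1 (0.946) and Pik3cd (0.941). With 6 arrays and this many genes, such values are a description of likeness and no more.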

How the data were processed

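Biotin-labelled total RNA was hybridised to 1-colour Affymetrix arrays, per the labels. The deposited table held log2 values, as read from their range of 0.80 to 14.0, 1 for each of 35556 probe sets on 6 arrays with none missing. The authors' background correction, summary and normalization of the signals were not given in the sources used here. Limma 3.14 appears in the submitters' processing notes, with no role stated. The number of arrays limits the precision.

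Probe sets with exactly 1 symbol in the platform annotation (21789; 1621 had several and 12146 none) were kept, 21698 were matched to a RefSeq gene by Entrez identifier, and the brightest of a gene over all arrays was used, leaving 19938 genes. No array build is named, so the only coordinates given are those of RefSeq's own promoter windows. Group means over all 6 arrays were fitted with limma 3.58.1 in R 4.3.3 (empirical Bayes without a trend, two-sided, Benjamini-Hochberg over all genes), with 3 residual and 6.77 prior degrees of freedom, and the step was tested on simulated data. SDs are between arrays of a group and SEs come from this fit; p-values measure only the spread between these arrays, which may be technical. Promoter motifs were counted with Python 3.11.15.

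The 10 genes, the further lists and the naming rule were chosen with earlier results of these data known. The rule names the 10 genes, and Pou5f1, Sox2 and Nanog as a check of the cell type. Per further list it names the brightest gene in untreated cells and up to 3 with the largest difference from untreated cells with either agent. It also names the 5 genes most like each of Mael, Zglp1 and Dazl. Not every gene that the rule names is described. Nr0b1, Sall4, Gdf9, Nlrp14, Acr, Odf1, Klf4, Dppa5a, Gata4, Foxl2, Tcstv3, Zfp352 and Eif1a were left out. Mga, Max, E2f6 and Snora62 are named outside the rule. Fkbp6, Syce3, Rhox2a, Oog1 and Meiosin were listed but are not analysed here, nor are 6 of the 12 listed genes of the two-cell-like state, for lack of a probe set with that 1 symbol. Alternatives were quantile, cyclic loess and 75th percentile normalization, averaged probe sets, leaving out the dimmest 40% of genes, an intensity trend, array weights, a fit to only the groups compared, a replicate block, and leaving out each array or both of narrower range.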

Additional observations from a re-analysis of the deposited data

How the results depend on the processing

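With 4OHT, the differences of Mael (-0.76 to -0.67), Zglp1 (-0.83 to -0.62), Dazl (-0.66 to -0.29), Stra8 (-0.47 to -0.35), Sycp3 (-0.46 to -0.35) and Mov10l1 (-0.19 to -0.01) kept their sign under all 16 alternatives; those of Ddx4, Sycp1, Piwil2 and Tdrd1 did not. With Shld1, Mael (-0.38 to -0.09), Zglp1 (-0.45 to -0.21), Stra8 (-0.39 to -0.24), Piwil2 (-0.34 to -0.10) and Ddx4 (0.13 to 0.37) kept theirs. Many of the settings could not change a gene's difference from untreated cells. Averaged probe sets (1 per gene here), the filter of dim genes and the trend are such settings. So are the weights, the block, the fit to only the groups compared and leaving out an array of the other agent. Leaving out both arrays of narrower range repeats leaving out 1 of them. Only the normalizations and leaving out an array compared could move a sign. The median of the 10 genes with 4OHT was -0.42 without the dimmest 40% of genes, which removes Tdrd1, and -0.31 to -0.17 with 1 array left out; with Shld1 and 1 array left out it was -0.20 to -0.06, and for 4OHT minus Shld1 -0.26 to -0.17. No alternative called a gene in either comparison with untreated cells. For 4OHT minus Shld1 an intensity trend in the moderation called 1 gene, Snora62 (limma, adjusted p = 0.0304). The counts at an unadjusted p under 0.05 moved more: between 518 (without untreated replicate 2) and 1634 (without 4OHT replicate 2) for 4OHT, between 469 (without the dimmest 40% of genes, where fewer genes were tested; 481 without untreated replicate 2) and 2680 (without Shld1 replicate 1) for Shld1, and between 707 (without 4OHT replicate 1) and 2270 (without Shld1 replicate 1) between the agents; the cause was not tested. With the replicate block, 0 genes were called in each comparison, and 785, 748 and 968 had an unadjusted p under 0.05. The medians of the 10 genes stay at -0.26, -0.11 and -0.22 by design, because each group has 1 array of each number. Deviations of same-numbered arrays correlated at 0.05 (4OHT and untreated), -0.08 (Shld1 and untreated) and -0.19 (4OHT and Shld1) across genes. These values cannot decide whether same-numbered arrays belong together. Each group has only 2 arrays, and the arrays of narrower range, 4OHT replicate 1 and Shld1 replicate 2, carry different numbers.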

Other observations

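Markers of later germ cells and of the gonad's somatic cells were mostly dim, and their differences with 4OHT were mostly positive. Of all genes 52.2% were negative with 4OHT and 51.1% with Shld1, and of those above background 58.7% and 58.1%. Genes below background were thus more often positive than brighter ones in general. Of 13 oocyte genes, all below background on average, 10 had a difference above or at 0 with 4OHT (median 0.15) and 9 with Shld1 (median 0.16). Zp3, a protein of the egg coat, was at 3.68 and 3.53 with 4OHT, at 3.57 and 3.85 with Shld1, and at 3.25 and 3.33 untreated, and Figla, a transcription factor of oocytes, differed by 0.36 (SE 0.19) and 0.55 (SE 0.19). The list medians were larger on the arrays of narrower range, 0.20 on 4OHT replicate 1 against 0.08 on replicate 2, and 0.23 on Shld1 replicate 2 against 0.01 on replicate 1. Of 10 gonad somatic genes 10 were positive with 4OHT (median 0.19), with medians of 0.27 on replicate 1 and 0.05 on replicate 2. With 4OHT Sox9 differed by 0.42 (SE 0.17). Dhh differed by 0.08 (SE 0.16) with 4OHT and by -0.40 (SE 0.16) with Shld1. The part that the narrower range plays in these values was not tested.

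Among 13 spermatid genes, Crem, a transcription factor of haploid male germ cells that other cells also express, was at 5.31 and 5.26 with 4OHT, at 5.23 and 5.12 with Shld1, and at 5.59 and 5.64 untreated, so that all 4 treated arrays lay below both untreated arrays, as for Stra8. Tssk3, a testis kinase, differed by 0.36 (SE 0.18) and 0.27 (SE 0.18). Of 14 spermatogonial genes 7 were negative with either agent. Uchl1, a ubiquitin hydrolase of undifferentiated spermatogonia and neurons, was at 7.03 and 7.06 with 4OHT, at 7.29 and 7.08 with Shld1, and at 7.38 and 7.40 untreated. Sohlh1, below background on average, differed by 0.39 (SE 0.19) with 4OHT, and Eomes by -0.39 (SE 0.15) with Shld1. Of 6 measured genes of the two-cell-like state 1 lay above background, and Tdpoz1 ranged from 3.02 to 4.35 over the arrays. Of 14 stem cell genes 6 were negative with 4OHT (median 0.03) and 11 with Shld1 (median -0.08); Utf1 and Tbx3 differed by 0.23 (SE 0.16) and 0.20 (SE 0.15) with 4OHT. Of 10 fibroblast genes 3 were negative with 4OHT and 6 with Shld1 (medians 0.07 and -0.05), and 6 of the 10 lay above background, among them Fn1 (10.29 to 10.67 over the arrays), Thy1 (5.28 to 6.11) and Col3a1 (3.83 to 4.41), while S100a4 lay below it. No gene of these lists passed the adjustment over all genes with limma.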
